A study of Mus musculus with 18 samples.

Results

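Of the 58386 extended regions of accessible chromatin on autosomes in primary mouse macrophages, 552 (0.945%) had their best scored summit inside coding sequence and away from promoters. A member was counted where the summit with the highest score of the region lay over 1000 bp from every annotated transcript start and inside a coding interval of a protein-coding gene, by GENCODE M21 on mm10. The catalog listed 59617 extended regions in all, and sex chromosomes were not considered. The remaining autosomal regions fell into 14537 with a summit within 1000 bp of a start, 22649 in introns of protein-coding genes, 1354 in exon sequence that was not coding and 19294 outside protein-coding genes.

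Accessibility was measured by ATAC-seq, in which a transposase places sequencing adapters into exposed DNA, in BMDMs, the macrophages that grow out of cultured bone marrow, taken from wild type mice. DMSO, the vehicle, had been given to all cells during 1 h before the stimulus. The cells then received nothing further, or LPS, a component of bacterial walls sensed by TLR4, or the cytokine IL-4 at 10 ng/mL, and were collected after 30 min, 1 h, 2 h and 4 h, which made 9 groups of 2 libraries (1 untreated, 4 LPS and 4 IL-4). The mice were male C57/BL6 according to the study's methods. The cells were cultured ex vivo, and no labels tied the 2 libraries of a group to separate animals. The lists analysed here pooled the 18 libraries and held positions and 1 score per summit, with no column per library. Thus, a member could not be assigned to a stimulus or a time point, and the depth per library was unknown. The values below are those of a single catalog and have no replicate values beside them. The score was the value listed per summit, and was used for ranking only. The sources used here did not state its scale or how it was derived from the calls of the single libraries.

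Exons of protein-coding genes have to keep a reading frame, so that a site for a transcription factor in coding sequence is read both by the factor and by the ribosome. Coding exons are mostly short and are separated by much longer introns, where most distal enhancers reside. In macrophages, accessible distal chromatin is known to be set up by the lineage factor PU.1 together with C/EBP, AP-1, RUNX and IRF proteins, while CTCF marks insulators and loop anchors.

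The coding bases around the summits of 2 of the 3 members with the highest scores are shown first, because they mark the upper end of the class. Angptl6 shared its score with Iscu and was ranked before it by gene name. Their sequences (mm10, 5′ to 3′ on the strand of the host gene) comprise the coding bases within 100 bp of the summit, with matches to a searched motif in capitals, and the 76 bases around each summit occurred once in the genome.
B430305J03Rik, chr3:61363795-61363902, minus strand: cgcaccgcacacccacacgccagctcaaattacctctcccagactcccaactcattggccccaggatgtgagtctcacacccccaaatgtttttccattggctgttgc
Angptl6, chr9:20878151-20878351, minus strand: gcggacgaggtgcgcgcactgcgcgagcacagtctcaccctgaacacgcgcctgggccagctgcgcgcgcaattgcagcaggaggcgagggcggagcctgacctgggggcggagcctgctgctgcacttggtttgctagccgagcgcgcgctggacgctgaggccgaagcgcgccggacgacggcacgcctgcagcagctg

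The best scored member, with a score of 1969, lay in Chd7, a chromodomain helicase that remodels nucleosomes, and was 1076 bp from the nearest start. The member in B430305J03Rik, whose product has no function named here, had a score of 1955 and lay 7 bp from the edge of a coding interval of 528 bp. The member in Angptl6, a secreted angiopoietin-like protein, scored 1903, and its window was wholly coding with a GC content of 72.1%. No searched motif occurred in the windows of B430305J03Rik and Angptl6.

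Short stretches around motifs in other coding exons show how sites for macrophage factors and for CTCF were embedded in codons. For each motif, members among the 2 highest scored that held it in coding sequence are given (mm10, 5′ to 3′ on the coding strand, matches to a searched motif on either strand in capitals, trimmed to coding bases). The first letter is the first base of a codon. The PU.1/ETS motif was searched as GAGGAAGT, AP-1 as TGACTCA or TGAGTCA, and CTCF by a core consensus.
Spen, chr4:141477865-141477900, minus strand: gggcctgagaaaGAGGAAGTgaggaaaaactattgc
Foxn2, chr17:88462784-88462819, plus strand: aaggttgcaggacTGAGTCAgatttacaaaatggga
Crybg1, chr10:43998648-43998683, minus strand: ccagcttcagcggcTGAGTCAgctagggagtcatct
Klf4, chr4:55530438-55530473, minus strand: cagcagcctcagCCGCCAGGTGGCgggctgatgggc
Gdf15, chr8:70629885-70629920, minus strand: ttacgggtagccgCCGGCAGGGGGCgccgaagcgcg

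In Spen, a transcriptional repressor with RNA-binding domains, the PU.1/ETS motif started at codon position 1 and was read as GAG GAA, both codons of glutamate. In Foxn2, a forkhead factor, the AP-1 motif started at codon position 2, and in Crybg1, a crystallin-related protein, at position 3. The CTCF motif started at position 1 in Klf4, a zinc finger factor induced by IL-4 in macrophages, and at position 2 in Gdf15, a secreted stress cytokine.

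Accessible regions were less dense in coding sequence than in introns. The distal coding sequence, defined as all coding bases over 1000 bp from a start, amounted to 24.0 Mb and held 22.9 ± 5.45 members per Mb (mean ± SD over chromosomes, n = 19 autosomes). Introns held 27.5 ± 3.47 regions per Mb, exon sequence that was not coding 32.4 ± 5.63, and sequence outside protein-coding genes 14.7 ± 3.38. The density in coding sequence was above that in introns of the same chromosome on 3 of 19 autosomes. It was lowest on chromosome 1, with 14.9 per Mb (25 members), and highest on chromosome 12, with 35.01 per Mb (30 members). The ranges of coding exons and introns overlapped, and chromosomes are not biological replicates, so that no test was made.

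**Figure D1:**
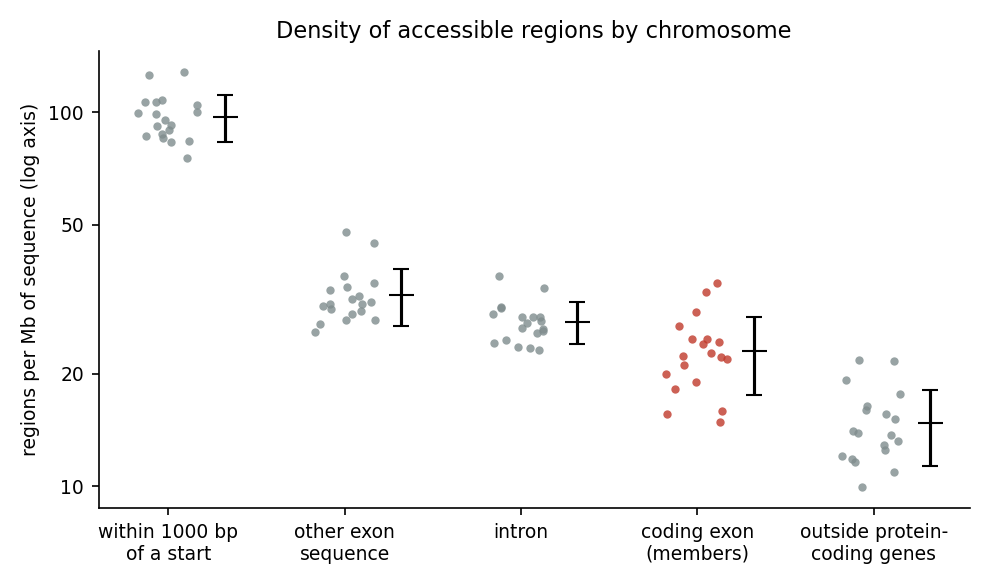
Regions per Mb of sequence (log axis) in 5 classes of sequence; each point is 1 of 19 autosomes, and the bars beside the points are the mean ± SD. Coding exons (red, mean 22.9 per Mb) lay between introns (27.5) and sequence outside protein-coding genes (14.7), with more spread between chromosomes than introns.

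Once present, members were about as strong as other distal regions. Their median score was 737, with quartiles of 493 and 1048 and a range of 108 to 1969. The median was 727 in introns, 685 in other exon sequence, 716 outside protein-coding genes and 1272 within 1000 bp of a start. The median score of members was above that of introns on 10 of 19 autosomes and below it on 9. Accordingly, 16.3% of members and 16.9% of intron regions had a score at or above 1272, the upper quartile over all autosomal regions. The reference peaks under the summits were also of similar width, with a median of 219 bp in members and 221 bp in introns. An extended region with more than 1 summit was found for 99 members (17.9%) and for 20.4% of intron regions.

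**Figure D2:**
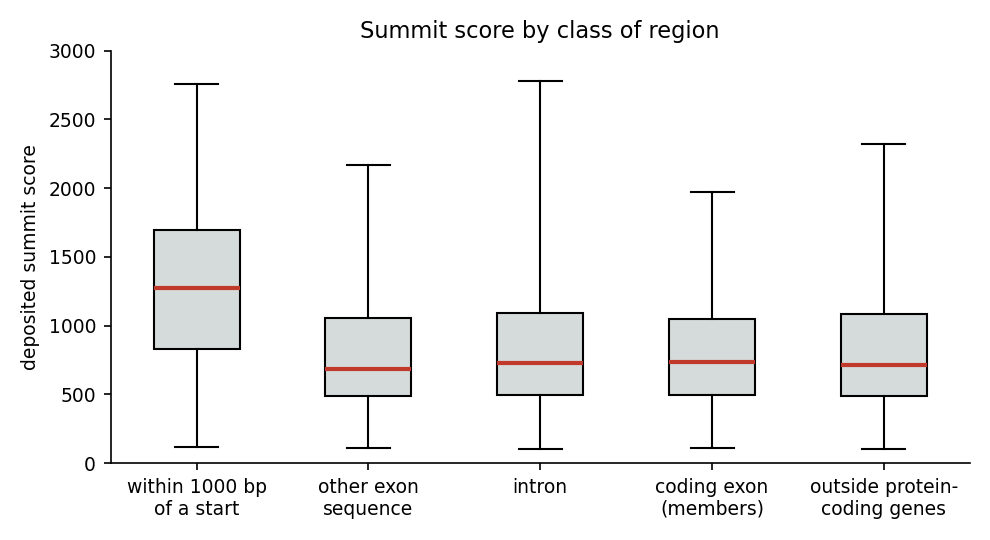
Deposited summit score (scale not stated) of the best summit per region in 5 classes; boxes give quartiles, the red line the median and whiskers the lowest and highest value. The boxes of members (median 737, upper quartile 1048) and introns (727 and 1094) largely overlapped, and regions within 1000 bp of a start were higher (1272).

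The remaining members of the top 10 lay in genes of diverse roles. The member in the last of 4 coding exons of Iscu, the scaffold for iron-sulfur cluster assembly, scored 1903, and the member in the last of 11 coding exons of Bcat2, the mitochondrial branched-chain aminotransferase, scored 1890. In Bcat2 the coding interval measured 36 bp, the shortest of all members, and 17.9% of the window was coding, so that most of this accessible window was outside coding sequence. Sptbn4, a spectrin of neuronal membranes, also scored 1890 in exon 32 of 35. Ankfy1, an endosomal effector of Rab5, scored 1864 with an AP-1 motif in the window. Ctdp1, a phosphatase of the RNA polymerase II tail, and Itsn1, an endocytic scaffold, both scored 1825. Fbxl22, an F-box protein, scored 1812 and had a window that was wholly coding, with a GC content of 74.1%. Thus, 8 of the top 10 host genes had a reference peak at most 1000 bp from a start of their own (a start site peak), and Angptl6 and Fbxl22 had none.

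The members lay closer to start sites than intron regions did. The median distance to the nearest start was 4660 bp, from 1004 to 179899 bp, while that of intron regions was 8309 bp. At up to 2000 bp there were 111 members (20.1%, 95% Wilson interval 17.0 to 23.7), and 130 (23.6%) lay over 10000 bp away. Of the intron regions, 9.66% and 43.8% lay in these 2 bands. The density of intron regions by distance was not computed, so that the 2 classes were not compared relative to the sequence available. Within coding sequence, counted over 1 representative transcript per gene, which took in 535 of 552 members, the density fell from 29.0 per Mb (95% Poisson interval 23.8 to 34.96) at up to 2000 bp to 24.9 (22.1 to 27.9) between 2000 and 10000 bp and 16.2 (13.5 to 19.3) beyond 10000 bp. The scores did not follow the same order, with medians of 737, 759 and 680. Wilson and Poisson intervals here and below cover counting error only.

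At the distance limit itself, the nearest members were in Pum2, an RNA-binding repressor of translation, at 1004 bp with a score of 486, and in Spata13, a guanine nucleotide exchange factor, at 1006 bp with a score of 911. The nearest coding summits that did not qualify were in Gpr153 at 1000 bp, with a score of 1164, and in Fam170b at 998 bp, with a score of 563. In total, 451 best summits in coding sequence lay within 1000 bp of a start, and their median score was 956.

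The host exons were short, although longer than coding exons in general. Intervals of up to 200 bp held 278 members (50.4%). Of the 136651 coding exons of representative transcripts with distal sequence, 42784 measured up to 100 bp and 70370 measured over 100 and up to 200 bp. The median length of the coding interval of members was 198.5 bp (36 to 8020 bp), and the reference peak was wider than it for 285 members (51.6%). The peak lay wholly inside the exon for 158 members (28.6%). Over 50% of the window was coding in 505 of 552 members (91.5%), which follows from the choice of summits inside coding intervals wherever the interval is longer than 100 bp. The reference peak, whose extent the rule did not use, was over 50% coding in 434 members (78.6%). The summit was coding in every transcript that covered it for 318 members (57.6%) and lay in an exon that some transcripts skip or leave untranslated for the others. The summit was within 10 bp of an exon edge in 61 members (11.1%).

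Short exons held fewer members than their sequence would take at the pooled density of 23.0 per Mb. In coding exons of up to 100 bp there were 14.9 members per Mb (95% Poisson interval 10.9 to 19.9), compared with 22.8 (19.9 to 26.0) in exons over 100 and up to 200 bp and 26.1 (21.6 to 31.3) in exons over 200 and up to 500 bp. Above this length, the density was 25.9 (19.8 to 33.4) up to 1000 bp and 22.3 (17.9 to 27.4) beyond. In terms of exons, 0.105% of those up to 100 bp and 3.23% of those over 1000 bp held a member.

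The last coding exon held more members per Mb than internal exons. The density was 32.02 (27.0 to 37.8) in last coding exons with 141 members, and 20.2 (18.2 to 22.5) in internal exons with 348 members, so that the intervals did not overlap. The difference was found in last exons of up to 500 bp, with 41.2 (32.8 to 51.1) compared with 19.5 (17.4 to 21.9) in internal exons of this length. Over 500 bp, the densities of 24.3 (18.4 to 31.4) and 24.9 (18.8 to 32.3) overlapped. First coding exons held 25.3 per Mb (16.2 to 37.7) and single coding exons 20.2 (12.6 to 30.5). Members lay at a median of 69.7% of the way along the gene. Coding sequence is itself concentrated there, with 37.1% of it and 37.9% of members in the last of 5 equal stretches of the gene, and the density in the 5 stretches ranged from 20.2 to 24.4 per Mb.

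Host genes more often carried a start site peak than all genes with distal coding sequence, hosts included. The reference peak of the member itself was not excluded, so that near the 1000 bp limit it could be counted as the start site peak. With members over 2500 bp from a start, the share of host genes was 74.9%. Such a peak, no more than 1000 bp from a start of the gene, was present in 389 of 524 host genes (74.2%, 95% Wilson interval 70.3 to 77.8) and in 11270 of 18195 protein-coding genes with distal coding sequence (61.9%, 61.2 to 62.6). Counted per Mb, genes with a start site peak held 27.1 members (24.5 to 29.9) and genes without held 15.2 (12.7 to 17.96). Members in genes with a start site peak had a median score of 769, and those in the others 664. Whether the genes were transcribed in these cells was not measured by these files.

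**Figure D3:**
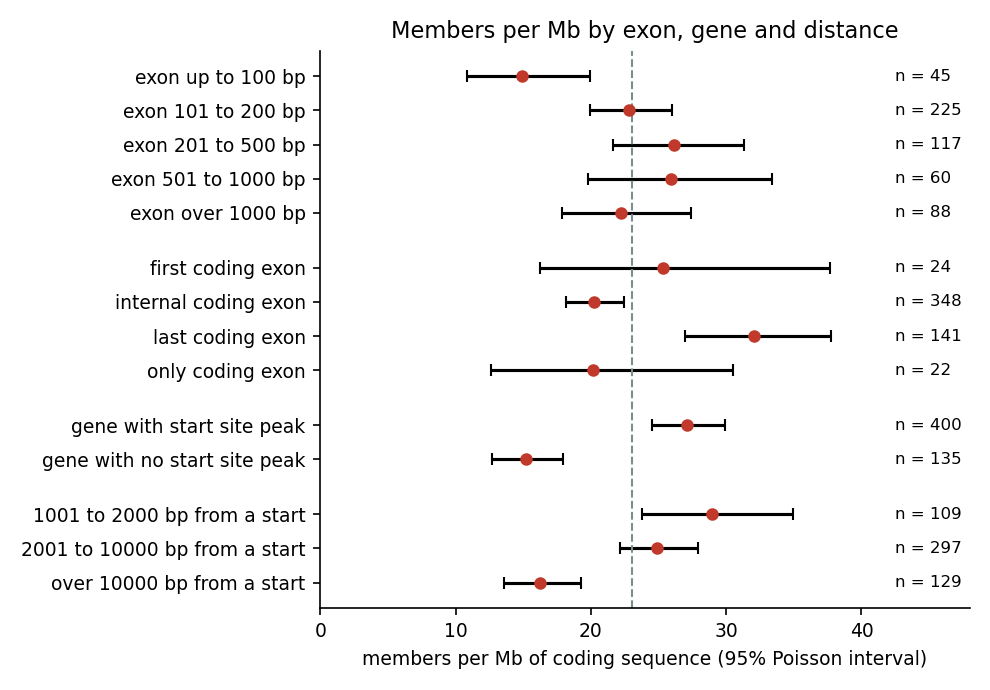
Members per Mb of distal coding sequence, with 95% Poisson intervals, by length of the coding exon, place of the exon in the gene, presence of a start site peak in the gene and distance from a start; n is the number of members and the dashed line is the density over all distal coding sequence (23.0). The intervals of exons of up to 100 bp, internal coding exons, genes without a start site peak and sequence over 10000 bp from a start lay below the line, and those of last coding exons, genes with a start site peak and sequence up to 2000 bp from a start lay above it.

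Each host gene usually held a single member. The 552 members were distributed over 524 genes, which were 2.88% of the 18195 genes with distal coding sequence. Of these, 499 held 1 member, 24 held 2 and 1 held 5. The gene with 5 members was Rnf213, a very large E3 ubiquitin ligase with 14515 bp of distal coding sequence. Its summits lay at chr11:119411541, 119414406, 119436069, 119440476 and 119443610 and had scores of 140, 1048, 421, 769 and 341. The 2 last summits were in the same exon of 3603 bp. The best of them had the score of the upper quartile of all members, and the weakest was close to the lowest score of 108.

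Few members lay in extended regions with many summits, as in introns. The member in Mrnip, a protein of DNA double strand break repair, belonged to a region of 13407 bp with 23 summits in 11 reference peaks, and its own score was 856. Crlf2, the receptor chain for the cytokine TSLP, lay in a region of 4125 bp with 7 summits and had a score of 1760. Irf8, a factor required for the monocyte lineage, lay in a region of 5882 bp with 5 summits and had a score of 1260. These 3 were the members with at least 5 summits, a share of 0.543%, beside 190 intron regions (0.839%) and 802 of all regions (1.37%).

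Shares of gene lists are to be read beside the 2.88% of all genes that were hosts. Since genes with more coding sequence have more room for a member, the members per Mb are given as well, beside the 23.0 of all distal coding sequence. Of 24 genes of the LPS response, among them Tnf and Il1b, 0 were hosts, which at 3 counts of 24 allows a share of up to 12.5% (upper 95% Wilson bound 13.8%). At the share of all genes, 0.691 hosts would be counted in this list, and at the pooled density its 0.0201 Mb of distal coding sequence would hold 0.462 members, so that a count of 0 does not set it apart. The IL-4 list had 2 hosts of 20 genes (10.0%, 95% Wilson interval 2.79 to 30.1), or 113 members per Mb (95% Poisson interval 13.7 to 408), where 0.408 members would be counted at the pooled density. These were Klf4, at 1390 bp from a start with a score of 1594 and with C/EBP and CTCF motifs, and Pparg, a lipid-sensing nuclear receptor, at 1851 bp with a score of 1543 and an AP-1 motif. Both were lost with a distance over 2500 bp, as was Irf8 of the macrophage list. The macrophage list had 2 hosts of 23 (8.70%, 2.42 to 26.8), or 64.2 members per Mb (7.77 to 232), where 0.717 would be counted. These were Irf8, with a RUNX motif, and Msr1, a scavenger receptor, with a score of 1094 at 22629 bp from the nearest start.

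Among 40 chromatin regulators, 8 held a member (20.0%, 10.5 to 34.8), which was 40.5 members per Mb (17.5 to 79.7) of their 0.198 Mb of distal coding sequence. At the pooled density, 4.55 members would be counted in this sequence. Besides Chd7 and Spen (1799), they comprised the SWI/SNF subunits Arid1b, with a score of 1480 and an AP-1 motif at 61078 bp from a start, and Arid1a, with a score of 1129 and an AP-1 motif. The helicase gene Chd2 had a score of 1468 and the acetyltransferase gene Ep300 a score of 968. Ankrd11 (685) and the Polycomb-associated Asxl2 (341) had lower scores. All 8 genes had a start site peak.

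Cytoskeleton and adhesion genes had 6 hosts of 35 (17.1%, 8.10 to 32.7), but their 0.230 Mb of distal coding sequence held 26.1 members per Mb (9.57 to 56.8), with 6 members where 5.30 would be counted at the pooled density. Scores were 1320 in the non-muscle myosin Myh9, 889 in the alpha-actinin Actn1, 878 in the spectraplakin Macf1, 845 in the endocytic receptor Lrp1, 737 in the dystrophin relative Utrn and 430 in the nuclear envelope protein Syne1. Lrp1 had NF-kB and CTCF motifs, Utrn had STAT6 and CTCF motifs, and Syne1 had PU.1/ETS and AP-1 motifs. Genes of other tissues had 2 hosts of 27 (7.41%, 2.06 to 23.4) and 9.65 members per Mb (1.17 to 34.8). They were the lipoprotein gene Apoa1, with a score of 856, an IRF motif and no start site peak, and the astrocyte filament gene Gfap, with a score of 759. The intervals of the shares overlapped between these lists. The interval of the share of hosts lay wholly above 2.88% in chromatin regulators and in cytoskeleton and adhesion genes, which have long coding sequences (with a distance over 2500 bp, Chd7, Ankrd11, Actn1 and Utrn were lost from them), but per Mb the interval of each list described here took in the pooled density of 23.0.

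The sequence of members resembled coding sequence, with more GC and more CpG. The median GC content of the windows was 54.2%, compared with 48.3% in introns and 61.2% within 1000 bp of a start. The median ratio of observed to expected CpG was 0.368, compared with 0.178 in introns and 0.698 near starts. Considering coding bases only, those in member windows had a GC content of 56.3% and a CpG ratio of 0.518, and all distal coding bases had 51.0% and 0.400. A repeat base occurred in 38.2% of member windows and in 60.6% of intron windows. The 76 bases at the summit, the length of a read, occurred more than once in the genome for 5 members. These were in Hist1h2be (11 copies, score 1543), a replication-dependent histone gene, Tk1 (2 copies, 1369), Myl12b (2 copies, 1332), Zfp459 (2 copies, 563) and Tmed10 (2 copies, 384), and reads from these copies cannot be told apart.

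At least 1 of 11 searched motifs was found in the windows of 309 members (56.0%), compared with 60.4% in introns and 59.6% in all autosomal regions. PU.1/ETS was present in 76 members (13.8%, 95% Wilson interval 11.1 to 16.9), compared with 11.7% of introns and 10.1% of all autosomal regions. In windows of the same size 1000 bp to each side, the share was 1.22%. CTCF was present in 44 members (7.97%, 5.99 to 10.5), above the 4.61% (4.35 to 4.89) of introns but beside 8.42% of regions in other exon sequence and 6.44% of those outside protein-coding genes, which lay inside the interval of members. It was found in 5.21% of all regions and 0.561% of the flanking windows. Its median distance from the summit was 19.5 bp, compared with 26 bp for AP-1 and 32.5 bp for PU.1/ETS.

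AP-1 and RUNX motifs were less frequent in members than in introns, and RUNX also less than in other exon sequence. AP-1 was found in 78 members (14.1%, 11.5 to 17.3), in 20.5% (20.0 to 21.0) of introns, in 17.4% of all regions and in 3.74% of flanks. Its share in other exon sequence, 16.8%, lay inside the interval of members. RUNX, searched as TGTGGTT, was found in 27 members (4.89%, 3.38 to 7.02), in 9.55% (9.17 to 9.94) of introns, in 8.27% of other exon regions, in 8.31% of all regions and in 5.33% of flanks. The RUNX share of members was thus no higher than that of the sequence beside them.

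The shares of most other motifs were near those of introns. Of these, the intervals of C/EBP (10.2 to 15.7), NF-kB (4.29 to 8.28), IRF (2.50 to 5.75) and SP/KLF (1.52 to 4.21) lay above the shares in the flanks, which were 7.94%, 2.15%, 2.15% and 0.655%. The interval of CRE was 0.616 to 2.59, and its share in the flanks was 0% (0 of 536 and 0 of 534 windows). Any match in members would place an interval above 0%, so that CRE was not compared with the flanks. C/EBP (TTGCNNAA) was found in 70 members (12.7%), beside 12.7% of introns and 11.6% of all regions. STAT6 (TTCNNNNGAA) was found in 35 (6.34%), beside 7.86% and 6.91%. NF-kB, by its consensus, was found in 33 (5.98%), beside 5.48% and 5.38%. IRF (GAAANNGAAA) was found in 21 (3.80%), beside 4.01% and 3.73%. SP/KLF (GGGCGGGG) was found in 14 (2.54%), beside 1.51% of introns and 7.23% of all regions, which include promoters. CRE (TGACGTCA), the element of CREB and ATF factors, was found in 7 (1.27%), beside 0.508% and 1.07%. The E-box TCACGTGA was found in 1 member (0.181%), beside 0.230% and 0.534%. The intervals took in the intron share for C/EBP, STAT6, NF-kB, IRF and the E-box, while the lower bounds of SP/KLF (1.52%) and CRE (0.616%) lay just above it.

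**Figure D4:**
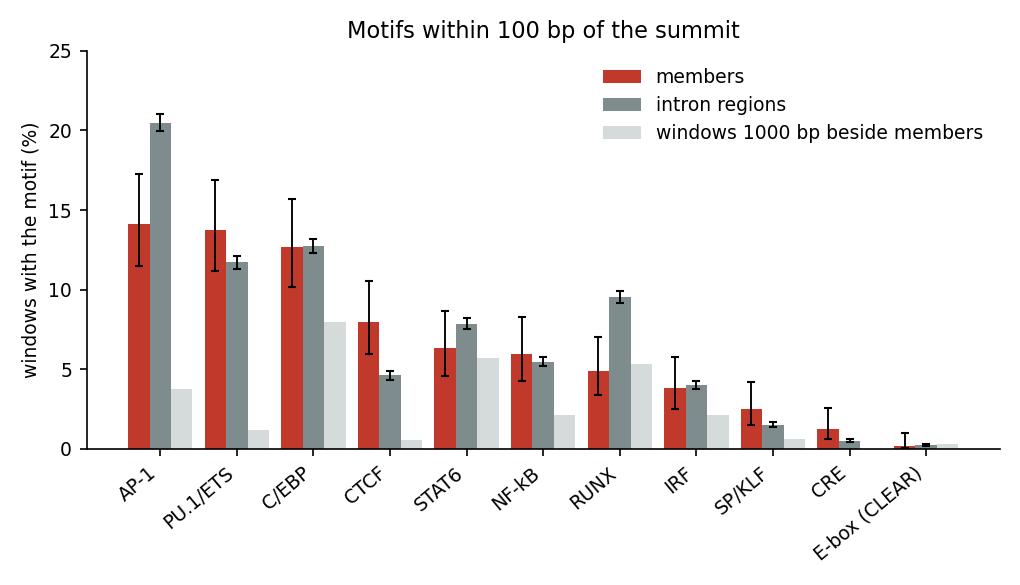
Share of windows of 100 bp to each side of the summit (%) with each motif in members, in intron regions and in windows 1000 bp to each side of members; error bars are 95% Wilson intervals. CTCF was more frequent in members (7.97%) than in introns (4.61%) but not than in other exon sequence (8.42%, not drawn). AP-1 (14.1%) was less frequent than in introns (20.5%) and within counting error of other exon sequence (16.8%, not drawn). RUNX (4.89%) was less frequent than in introns (9.55%). PU.1/ETS, AP-1, CTCF, C/EBP, NF-kB, IRF and SP/KLF had intervals above the share in the flanks, and CRE had 0 matches in the flanks.

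Because introns and exons differ in composition, motif matches were also counted per Mb of coding sequence. The coding bases of member windows amounted to 83.5 kb, and all distal coding sequence to 24.0 Mb. CTCF matches were 21.2 times as dense in member windows as in all distal coding sequence, with 479 and 22.6 matches per Mb. The ratio was 9.28 for PU.1/ETS, with 766 and 82.6 per Mb, and 6.57 for AP-1, with 766 and 117 per Mb. It was 4.04 for CRE, 3.34 for SP/KLF, 2.66 for NF-kB, 1.70 for IRF, 1.40 for C/EBP, 1.32 for RUNX and 0.888 for STAT6. CRE and SP/KLF rest on 5 and 8 matches. The members themselves were part of the coding sequence used for comparison.

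Of the members with each of these other motifs in coding sequence, the 2 with the highest scores, as far as given here, are shown in the same way as above (coding strand, matches to any searched motif in capitals), in the order C/EBP, NF-kB, IRF, STAT6, SP/KLF and CRE. The stretch of Armc3 begins inside a codon, because its motif starts at the exon edge, and its capitals join overlapping IRF matches. The stretch of Nckap1l holds a PU.1/ETS match before its STAT6 match.
Fam234b, chr6:135228479-135228514, plus strand: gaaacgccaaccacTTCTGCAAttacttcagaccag
Rin2, chr2:145860616-145860651, plus strand: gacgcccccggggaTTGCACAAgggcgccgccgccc
Tmem171, chr13:98692164-98692199, minus strand: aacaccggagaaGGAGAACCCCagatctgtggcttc
Col11a2, chr17:34057412-34057447, plus strand: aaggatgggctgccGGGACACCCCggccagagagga
Asph, chr4:9630777-9630812, minus strand: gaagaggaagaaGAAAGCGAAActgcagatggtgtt
Armc3, chr2:19300472-19300493, plus strand: GAAAGGGAAAGGGAAAaaagaa
Nckap1l, chr15:103462707-103462742, plus strand: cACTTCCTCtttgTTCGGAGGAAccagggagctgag
Zfp771, chr7:127254201-127254236, plus strand: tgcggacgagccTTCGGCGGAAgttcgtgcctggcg
Crlf2, chr5:109557610-109557645, minus strand: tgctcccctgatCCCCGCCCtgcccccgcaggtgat
Maff, chr15:79357823-79357852, plus strand: gcccctgctgctgaCCCCGCCCcctgctcc
Crlf2, chr5:109557637-109557672, minus strand: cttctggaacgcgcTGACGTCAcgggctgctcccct
Lhx2, chr2:38369028-38369063, plus strand: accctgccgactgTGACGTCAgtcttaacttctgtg

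Scores were 1786 in Fam234b and 1721 in Rin2, a Rab5 exchange factor, for C/EBP. They were 1493 in Tmem171 and 1418 in the collagen gene Col11a2 for NF-kB, and 1443 in the hydroxylase gene Asph and 1431 in Armc3 for IRF. Nckap1l, the hematopoietic subunit of the WAVE complex for actin assembly, scored 1619 with a PU.1/ETS and a STAT6 motif, and the zinc finger gene Zfp771 scored 1568. Naa40, an acetyltransferase of histone tails, scored 1176 with a RUNX motif. Crlf2 (1760) held both an SP/KLF and a CRE motif in sequence annotated as coding. Both lay outside the coding interval of 97 bp taken for its summit, and are coding in another transcript only. Maff (1632), a small MAF factor, held an SP/KLF motif, and Lhx2 (748), a LIM homeobox factor, held a CRE motif.

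AP-1 motifs in coding sequence were absent from 1 of the 3 reading frames. The AP-1 motif begins with TGA on either strand, and TGA is a stop codon, so that a match that starts at codon position 1 would end the protein. In members, 0 of 64 AP-1 matches started there, a count fixed by the genetic code, as did 0 of 2781 in all distal coding sequence. At the other positions, 19 matches in members (29.7%) started at position 2 and 45 (70.3%) at position 3, compared with 43.9% and 56.1% in all distal coding sequence. CRE motifs, which also begin with TGA, were at position 1 in 0 of 5 matches in members and in 0 of 354 in all distal coding sequence.

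PU.1/ETS motifs were mostly read in 1 frame per strand, in members as in other coding sequence. Frames were counted for 66 matches in member windows, 2 more than in the density above, because these 2 lay within 1000 bp of a start. On the coding strand, 28 of 42 matches in members (66.7%) started at position 1, beside 63.1% of 1136 in all distal coding sequence. On the opposite strand, 19 of 24 (79.2%) had their first base at position 2, beside 61.4% of 828. The frame of the 40 CTCF matches in members was less uneven, with 7, 4 and 8 of 19 on the coding strand at positions 1, 2 and 3, and 5, 10 and 6 of 21 on the opposite strand. The numbers of matches were too small for finer comparison between members and other coding sequence.

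**Figure D5:**
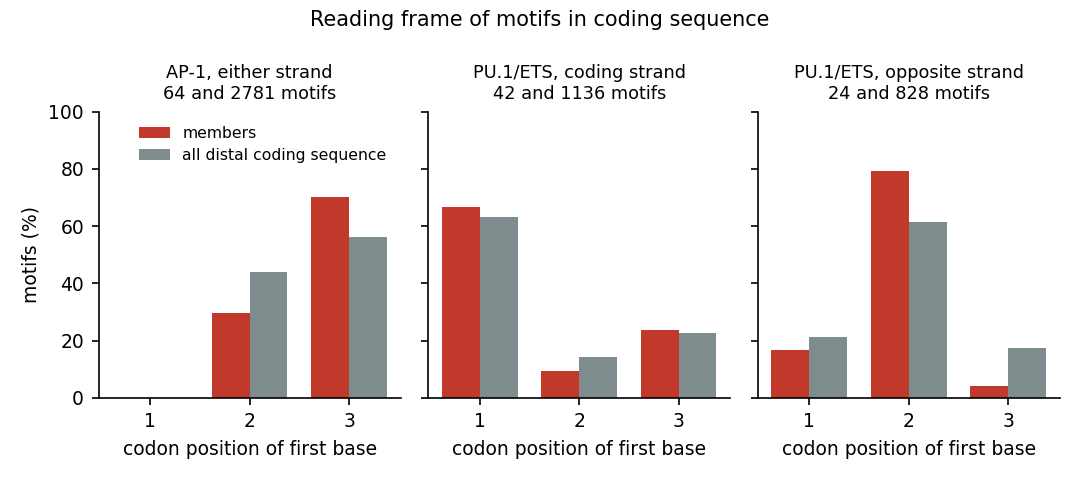
Share of motif matches (%) by the codon position of their first base on the coding strand, in member windows (red) and in all distal coding sequence (grey), for AP-1 and for PU.1/ETS on either strand; the numbers of matches in both are given above each panel. AP-1 had 0 matches at position 1 in both, and PU.1/ETS was mostly at position 1 on the coding strand (66.7% and 63.1%) and at position 2 on the opposite strand (79.2% and 61.4%).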

How the data were processed

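The authors trimmed single-end ATAC-seq reads with Trimmomatic 0.39, mapped them to mm10 with ShortStack, filtered them with SAMtools 1.9 and called peaks and summits with MACS2 2.2.6, keeping duplicates. According to the paper's methods, peaks called per sample entered the reference set if they passed a q-value limit and overlapped between replicates. No shift towards the transposase cut site was stated. The deposited files were 3 lists (reference peaks, extended regions and summits), and the score is the value the authors deposited per summit. There was no column per library, and 0 columns of other samples.

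Positions are 1-based. Summits (83038 on autosomes) were joined to GRCm38.p6 sequence and GENCODE M21 with Python 3.11.15, numpy 2.4.6, pandas 2.3.3 and scipy 1.17.1. Motif letters were looked for on both strands, 100 bp to each side of a summit. A match is a description of letters, not of binding. The counting was tested on simulated data. No hypothesis test was made. Members, gene lists and motifs were chosen with earlier results of these data known.

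Genes were named by rule: the 10 highest scores, genes with 3 or more members, members in listed genes, the 2 best members per motif with at least 5 members, 2 summits at each side of the 1000 bp limit, and the 3 members with the most summits. Sequences were chosen for the 3 best members with unique 76 bases and around motifs of the named motif members. Some items chosen by these rules are not reported here. Alternatives changed the distance, window, transcripts, summits and score minimum.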

Additional observations from a re-analysis of the deposited data

How the results depend on the processing

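Under 10 alternatives, the values they bear on were recomputed: the midpoint was tried for the number of members only, unique 76 bases for the median score only (737 again), and the windows for motifs only. Densities by exon length, exon place, start site peak and distance, and the comparisons with introns, were not recomputed. The number of members was 552 as reported, 740 with every summit, 633 with a distance over 500 bp, 405 over 2500 bp, 687 with transcripts tagged basic (543 of the 552 among them) and 558 with the midpoint of the reference peak in place of the summit (496 of the 552 among them). With every summit, the density rose to 30.7 per Mb, the median score was 654 and 33 listed genes were hosts, compared with 21. With scores at or above the median of all regions, 242 members were left, at 10.2 per Mb, with a median score of 1129 and a start site peak in 78.1% of host genes. With a distance over 2500 bp, 12 listed genes were hosts, compared with 21. The share of members with any motif was 41.3% with 50 bp and 66.8% with 200 bp to each side. Single motif shares also followed the window, with 2.36% and 8.51% for RUNX, 7.79% and 19.6% for C/EBP and 3.80% and 12.5% for STAT6. The AP-1 count of 0 at codon position 1 is fixed by the stop codon and cannot move with a setting. An alternative with coding intervals of protein_coding transcripts only, which was chosen after seeing the data, left 549 members. No paired analysis was possible because the lists have no column per library, and leaving out libraries could not be run for the same reason. The depth per library is unknown, and weak summits are listed only as far as the authors' threshold allowed.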
